A study of Homo sapiens with 4 samples.

Results

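The cadherins and claudins described here were the genes whose symbol was CDH or CLDN followed by a number. There were 42 of them among the 17894 genes in the files, 22 cadherins and 20 claudins. Their RNA was measured by RNA-SEQ in 4 libraries of H1 cells, a human embryonic stem cell line, collected at day 2 of hematopoietic differentiation on mAGM-S3 mouse stromal cells. Human cells were sorted from the stroma before RNA was extracted. The control library came from wild type H1 cells without added R-spondin2. The R-spondin2 library came from wild type H1 cells given R-spondin2, a secreted agonist of WNT signaling, at 20 ng/mL for the first day of differentiation. The other 2 libraries came from untreated H1 cells of genotype LGR4-/-, which lack an intact gene for LGR4, a receptor of R-spondins. The labels number these libraries 1 and 2 without saying whether they were separate clones or cultures, so the spread between them may be technical. How the gene was disrupted is not given in the sources used here.

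Cadherins are calcium-dependent adhesion proteins of the adherens junction, where their tails bind catenins and through them the actin cytoskeleton. Claudins are membrane proteins with paired extracellular loops that form the strands of the tight junction and set which solutes pass between cells. Pluripotent cells form an epithelium rich in E-cadherin (CDH1), and cells that leave it at the primitive streak to become mesoderm typically exchange E-cadherin for N-cadherin (CDH2) in an epithelial to mesenchymal transition.

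The values were FPKM, fragments scaled for transcript length and for depth, which are per length and can be compared between genes. The FPKM of all genes summed to between 433574 and 437112 in a library. The depth, estimated from the low values, was between 8680000 and 8910000 reads. LGR4 itself (gene ID 55366) was at 21.8 FPKM in control, 24.3 with R-spondin2, 7.40 in LGR4-/- library 1 and 13.9 in library 2. It was therefore lower in both libraries labelled LGR4-/-, but not at 0 in either, and its difference from control did not pass the limma test (adjusted p = 0.211, Benjamini-Hochberg). All 6 pluripotent markers examined and all 7 markers of primitive streak and mesoderm were past 1 FPKM on average. In such bulk samples, fewer cells of a type and less RNA per cell cannot be told apart.

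Sequence upstream of transcription starts is shown for CLDN7, CLDN3 and CDH2 because these genes stood on opposite sides of control in the LGR4-/- libraries. E-boxes (CANNTG, read the same way on both strands) are the letters bound by SNAI and ZEB factors, which prefer the form CACCTG and are known repressors of CDH1. RefSeq windows of 250 bases before a start, on GRCh38.p14, were found for 28 of the 42 members, 15 of them past the filter on low values. CDH1, CDH3 and CDH11 were not among them. The authors' build was hg19, so these coordinates are not those of the files. CLDN7 has an outer and an inner start, and the window of the inner one held CACCTG or its reverse complement CAGGTG 4 times, at 174, 135, 20 and 9 bases before the start. All 250 bases of that window lie within annotated exons. Its last 28 bases, at chr17:7262479-7262506 on the minus strand, hold the pair nearest the start. The other sequences are the windows of the outer CLDN7 start (chr17:7263214-7263463, minus strand), of CLDN3 (chr7:73770271-73770520, minus strand) and of the inner CDH2 start (chr18:28036642-28036891, minus strand), none of which overlaps an annotated exon. CDH2 also has an outer start, whose window (chr18:28177131-28177380, minus strand) held no CANNTG. That window lies within annotated exons and is not printed. All printed sequences are written 5′ to 3′ in the direction of transcription, with CANNTG in capitals.
CLDN7 inner start: catatactCAGGTGcgcccCACCTGtcc
CLDN7 outer start: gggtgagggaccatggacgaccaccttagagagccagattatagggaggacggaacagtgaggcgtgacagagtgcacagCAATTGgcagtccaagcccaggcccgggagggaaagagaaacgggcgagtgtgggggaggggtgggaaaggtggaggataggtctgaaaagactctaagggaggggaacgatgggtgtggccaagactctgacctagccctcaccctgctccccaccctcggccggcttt
CLDN3: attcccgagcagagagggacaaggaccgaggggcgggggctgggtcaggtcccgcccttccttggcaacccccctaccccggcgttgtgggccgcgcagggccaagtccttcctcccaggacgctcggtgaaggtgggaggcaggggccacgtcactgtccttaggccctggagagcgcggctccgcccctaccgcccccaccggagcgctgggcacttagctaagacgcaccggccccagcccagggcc
CDH2 inner start: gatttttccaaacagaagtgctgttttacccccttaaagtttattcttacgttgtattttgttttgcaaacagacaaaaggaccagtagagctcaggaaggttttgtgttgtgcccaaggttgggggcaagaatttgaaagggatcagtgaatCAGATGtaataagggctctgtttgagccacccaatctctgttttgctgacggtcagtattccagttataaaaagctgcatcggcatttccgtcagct

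CACCTG on either strand was present in 5 of the 47 windows of members (10.6%) and in 17.5% of all 35116 RefSeq windows. Among members past the filter it was found in 3 of 24 windows, those of the inner CLDN7 start, CDH23 and CDH4. Windows with 4 or more copies were 0.122% of all. This threshold is the count in the inner CLDN7 window itself, so the share is no test of that window. The letters ATCAAAG, the TCF/LEF form through which WNT signaling acts on genes, were found on either strand in 0 of the 47 member windows and in 2.26% of all windows. A match is a description of the letters in a short window, and no binding was measured here.

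Of the 42 members, 22 averaged at least 1 FPKM across all 4 libraries, the filter used for all comparisons, and 12697 of all genes passed it. These were 10 cadherins and 12 claudins. In every library the RNA of each family came mostly from a few genes: CLDN6 for the claudins, and CDH2, CDH1 and CDH3 for the cadherins. The next members by mean level were CLDN7, CDH24, CLDN12, CLDN11, CDH11, CLDN4 and CLDN10.

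**Figure D1:**
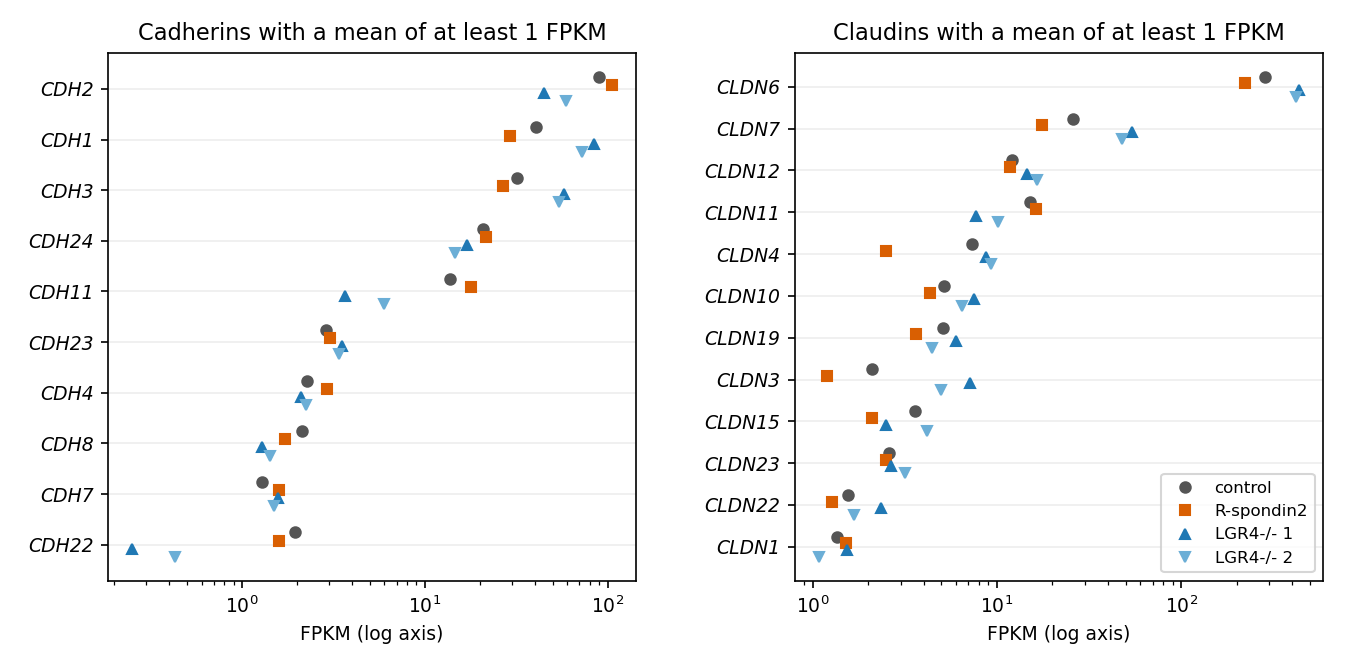
FPKM on a log axis of the 10 cadherins (left) and 12 claudins (right) with a mean of at least 1 FPKM, 1 point per library, ordered by mean level. CLDN6 lies between 222 and 436 FPKM, and the blue LGR4-/- points of CDH1, CDH3, CLDN6, CLDN7 and CLDN3 lie to the right of the wild type points while those of CDH2, CDH11 and CDH22 lie to the left.

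In both LGR4-/- libraries CDH1, CDH3, CLDN6, CLDN7 and CLDN3 were higher than in control, and CDH2, CDH11, CDH22 and CLDN11 were lower. CDH22 passed the filter through the wild type libraries alone. CLDN4 differed little from control, and CLDN1, CLDN15, CLDN19 and CDH7 overlapped the wild type libraries. The differences in log2(FPKM+1), averaged over both libraries, ran from -1.37 for CDH11 to 1.16 for CLDN3. CDH1, which exceeded CDH2 in neither wild type library, exceeded it in both LGR4-/- libraries. In the limma test over all genes past the filter, 0 of 22 members passed an adjusted p of 0.05, and 0% of all genes did in either direction. At an unadjusted p under 0.05, limma had 6 members higher (background 10.2% of all genes) and 5 lower (8.19%).

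E-cadherin (CDH1, gene ID 999), the main cadherin of epithelia, was at 40.4 FPKM in control, 29.2 with R-spondin2, 83.8 in LGR4-/- library 1 and 72.7 in library 2. Both LGR4-/- libraries lay above both wild type libraries. The LGR4-/- difference on the log2(FPKM+1) scale was 0.93 (SE 0.112, limma adjusted p = 0.0755). P-cadherin (CDH3, gene ID 1001), a close relative of CDH1 and its neighbor on chromosome 16, was at 32.0, 26.6, 57.4 and 54.0 FPKM in the same order of libraries. Its levels kept the order of the CDH1 levels, with a difference of 0.78 in LGR4-/- (SE 0.0912, limma adjusted p = 0.0755). The ratio of CDH1 to CDH3 FPKM stayed between 1.10 and 1.46.

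N-cadherin (CDH2, gene ID 1000), the classical cadherin of neural and mesodermal cells, was the highest cadherin in both wild type libraries. It was at 89.4 FPKM in control, 106 with R-spondin2, 44.8 in LGR4-/- library 1 and 59.1 in library 2. The LGR4-/- levels were below both wild type levels, by 0.79 from control on the log2(FPKM+1) scale (SE 0.169, limma adjusted p = 0.110). The ratio of CDH1 to CDH2 FPKM was 0.452 in control and 0.276 with R-spondin2, against 1.87 and 1.23 in LGR4-/- libraries 1 and 2. The remaining classical type I cadherin past the filter, CDH4 (R-cadherin, first described in retina), was between 2.10 and 2.93 FPKM.

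The type II cadherins past the filter were CDH24, CDH11, CDH8, CDH7 and CDH22. CDH11 (gene ID 1009), a cadherin of mesenchyme and bone-forming cells, was at 13.7 FPKM in control, 17.9 with R-spondin2, 3.66 in LGR4-/- library 1 and 6 in library 2. It was more than 2-fold lower in both LGR4-/- libraries, at 0.266 and 0.436 of the control FPKM, with a limma difference of -1.37 (SE 0.258, adjusted p = 0.0968). CDH22 was at 1.95, 1.60, 0.25 and 0.43 FPKM, and its limma difference was -1.14 (SE 0.205, adjusted p = 0.0942). Its mean of 1.06 FPKM lay just inside the filter and it passed through the wild type libraries alone, so that a lower LGR4-/- level was built into its selection. Only about 9 and 15 reads were implied for CDH22 in the LGR4-/- libraries. CDH24, which like other type II members binds catenins, was at 20.9, 21.5, 16.9 and 14.6 FPKM, a smaller difference of -0.39 (SE 0.128, limma adjusted p = 0.208). CDH8, at 1.29 to 2.12 FPKM, was below both wild type libraries in both LGR4-/- libraries, and CDH7, at 1.28 to 1.59 FPKM, was not. CDH23, a cadherin of the tip links of hair cells and no classical adhesion protein, was between 2.88 and 3.52 FPKM.

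Although single cadherins differed up to 4.89-fold between libraries among those above 10 FPKM in control, the FPKM of all 22 cadherins summed to 211 in control, 217 with R-spondin2, 220 in LGR4-/- library 1 and 219 in library 2. The make-up of the sum differed. CDH1 accounted for 19.1% of it in control, 13.5% with R-spondin2, and 38.2% and 33.2% in the LGR4-/- libraries. CDH2 accounted for 42.3% and 48.8% in control and with R-spondin2, and for 20.4% and 26.9% in the LGR4-/- libraries. The share of CDH11 was 6.50%, 8.24%, 1.67% and 2.73%.

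**Figure D2:**
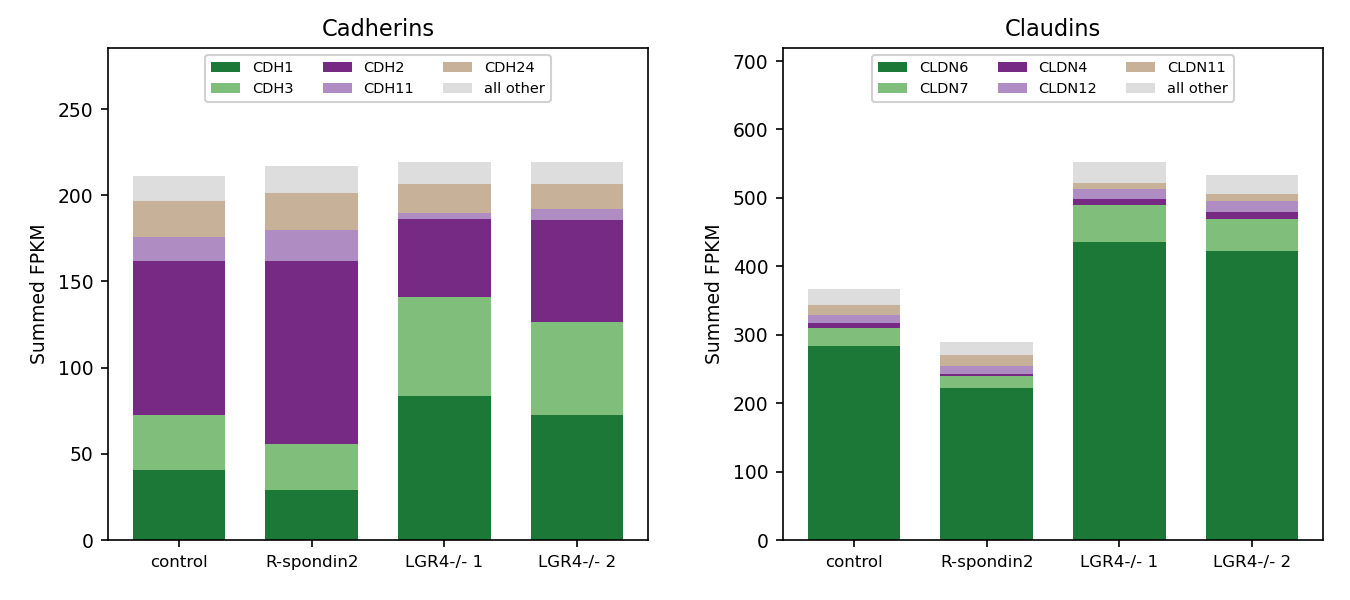
Summed FPKM of the 22 cadherins (left) and 20 claudins (right) in each library, stacked by gene from a baseline at 0, with 5 genes of each family shown and all others in grey. The cadherin bars are of nearly equal height (211 to 220 FPKM) but differ in the shares of CDH1 and CDH2, whereas the claudin bars differ in height (289 to 553 FPKM) with CLDN6 as the largest share of each.

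The claudins, in contrast, differed in their sum, which was 367 FPKM in control, 289 with R-spondin2, 553 in LGR4-/- library 1 and 534 in library 2. CLDN6 (gene ID 9074), a claudin of embryonic epithelia and pluripotent cells, made up 77.1%, 76.8%, 78.8% and 79.1% of these sums. It was at 283 FPKM in control, 222 with R-spondin2, 436 in LGR4-/- library 1 and 422 in library 2. The 2 LGR4-/- values were close to each other and above both wild type values, with a log2(FPKM+1) difference of 0.60 from control (SE 0.0609, limma adjusted p = 0.0755).

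CLDN7 and CLDN3 are claudins of many epithelia, and CLDN4 is a barrier-forming claudin encoded next to CLDN3 on chromosome 7. CLDN7 (gene ID 1366) was at 25.8 FPKM in control, 17.6 with R-spondin2, 54.2 in LGR4-/- library 1 and 47.9 in library 2. Its LGR4-/- difference was 0.95 (SE 0.111, limma adjusted p = 0.0755), close to that of CDH1. CLDN3 (gene ID 1365) was lower in level, at 2.11, 1.20, 7.13 and 4.96 FPKM, and was 3.38-fold and 2.35-fold above the control FPKM in the LGR4-/- libraries. Its limma difference was 1.16 (SE 0.232, adjusted p = 0.101), and about 24 reads were implied for it in control. CLDN4 (gene ID 1364) differed little from control in the LGR4-/- libraries, at 7.31 FPKM in control against 8.78 and 9.34 (log2 difference 0.28, SE 0.137, limma adjusted p = 0.374). The ratio of CLDN3 to its neighbor CLDN4 was 0.289 in control, 0.480 with R-spondin2, and 0.812 and 0.531 in the LGR4-/- libraries.

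CLDN11, a claudin of myelin and of Sertoli cells, was the claudin past the filter that was below both wild type libraries in both LGR4-/- libraries. It was at 15.1 FPKM in control, 16.4 with R-spondin2, 7.71 in LGR4-/- library 1 and 10.1 in library 2 (log2 difference -0.71, SE 0.177, limma adjusted p = 0.134). CLDN12 was at 12.03, 11.7, 14.6 and 16.5 FPKM (0.34, SE 0.128, limma adjusted p = 0.255), and CLDN10, which forms paracellular channels, at 5.19, 4.33, 7.56 and 6.44 FPKM (0.37, SE 0.158, limma adjusted p = 0.311). The other claudins past the filter, CLDN19, CLDN15, CLDN23, CLDN22 and CLDN1, ran from 1.08 FPKM (CLDN1) to 5.97 FPKM (CLDN19), and their limma adjusted p lay between 0.648 and 0.975.

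Counted over the 22 members past the filter, both LGR4-/- libraries lay above both wild type libraries for 11 members (background 34.4% of all genes) and below both for 7 (background 27.6%), the latter a share close to the background. An exact permutation test of 2 against 2 libraries cannot give a p below 0.333. Folds were counted on the FPKM+1 scale, here and below, where low genes reach a threshold less easily than by their FPKM ratio. At least 2-fold in both LGR4-/- libraries against control on this scale, 0 members were higher (background 0.236%) and 2 were lower (background 1.08%), CDH11 and the selected CDH22. CLDN3 was over 2-fold higher in both by its FPKM ratio, and with a pseudocount of 0.1 in place of 1 the 2-fold count was 3. At 1.5-fold on FPKM+1, 4 members were higher (background 2.61%), namely CDH1, CDH3, CLDN3 and CLDN7, and 3 were lower (background 3.09%), namely CDH11, CDH2 and CDH22. The count at 2-fold was set by LGR4-/- library 2: with it left out 5 members passed (CDH1, CDH11, CDH22, CLDN3 and CLDN7), and with library 1 left out 2 did, as with both. The limma calls depended on the settings. With a filter of 5 FPKM, CDH1, CDH11, CDH2, CDH3, CLDN6 and CLDN7 passed (6 of 11 members tested, 497 of 9029 genes), and after rescaling each library by its median ratio CDH1, CDH3, CLDN6 and CLDN7 passed (4 of 22 members, 88 of 12688 genes). The test had 1 residual degree of freedom, from the LGR4-/- pair, and took the lone control library to vary as that pair did.

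Between the 2 LGR4-/- libraries, 0 members were 2-fold apart (background 0.252%). At 1.5-fold 1 was (background 2.41%), CDH11. The SD over all genes of the log2 difference between these libraries was 0.222, and the differences of CDH1 (-0.20), CDH3 (-0.09), CLDN6 (-0.05) and CLDN7 (-0.17) were within it, while those of CDH2 (0.39), CLDN11 (0.35), CLDN3 (-0.45) and CDH11 (0.59) were not.

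The cells given R-spondin2 had less claudin RNA than control cells, 289 against 367 summed FPKM, and about as much cadherin RNA. CLDN4 was the member with the largest difference, at 2.50 FPKM against 7.31 in control. CDH1, CDH3, CLDN6 and CLDN7 were lower by smaller amounts, and CDH2 and CDH11 were higher. With 1 library in each group these differences have no replicate check, and no p-value is given. The comparison uses the same control library as that of the LGR4-/- cells, so a deviation of this library would enter both.

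CLDN4 was the 1 member at least 2-fold lower with R-spondin2 (background 0.173%), and 0 members were at least 2-fold higher (background 0.0473%). At 1.5-fold on FPKM+1 the count was the same, 1 lower (background 1.46%) and 0 higher (background 0.536%). The CLDN4 difference was -1.25 on the log2(FPKM+1) scale and its FPKM ratio 0.342. About 40 reads were implied with R-spondin2 and 119 in control, and the 95% exact interval of the log2 ratio of reads, from -2.09 to -1.01, covers counting error only. The difference exceeded the SD over all genes of 0.213 for this pair of libraries. The neighbor CLDN3 was at 1.20 against 2.11 FPKM, with about 13 and 24 reads and an interval of the log2 ratio from -1.94 to 0.18 that included 0, so a difference in CLDN3 was not detectable at this depth. CLDN15, a channel-forming claudin, had the next difference in size after CLDN4 (-0.58), at 2.09 against 3.61 FPKM and 2.50 and 4.19 in the LGR4-/- libraries. Its interval for R-spondin2 ran from -1.55 to -0.04, on about 25 and 44 reads. By FPKM ratio, CLDN3 (0.569) and CLDN15 (0.579) were thus also beyond 1.5-fold.

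CLDN7, CDH1, CLDN6 and CDH3 had smaller differences than CLDN4, with intervals that left out 0. The log2 ratio of reads had an interval from -0.82 to -0.28 for CLDN7, from -0.61 to -0.32 for CDH1, from -0.43 to -0.28 for CLDN6 and from -0.40 to -0.13 for CDH3. For CDH2 the interval ran from 0.17 to 0.32 and for CDH11 from 0.25 to 0.51, both above 0. On the log2(FPKM+1) scale the differences of CDH2 (0.24), CDH3 (-0.26), CLDN6 (-0.35), CDH11 (0.36), CDH1 (-0.45) and CLDN7 (-0.53) were all above the SD over all genes in size, by less than 3 times. For CDH24, CLDN12, CLDN11, CLDN10, CLDN1 and CLDN23 the intervals included 0.

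In all, 14 members were lower with R-spondin2 (background 51.9%) and 8 were higher (background 47.8%), a split by family of 10 lower and 2 higher claudins and of 4 lower and 6 higher cadherins. The median difference was -0.28 for the 12 claudins and 0.05 for the 10 cadherins, beside -0.01 for all genes. In the LGR4-/- libraries 1 and 2 the medians were 0.25 and 0.23 for the claudins and -0.19 and -0.19 for the cadherins, beside 0.02 and 0.02 for all genes. The median of a family hides the opposite positions of CDH1 and CDH2.

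**Figure D3:**
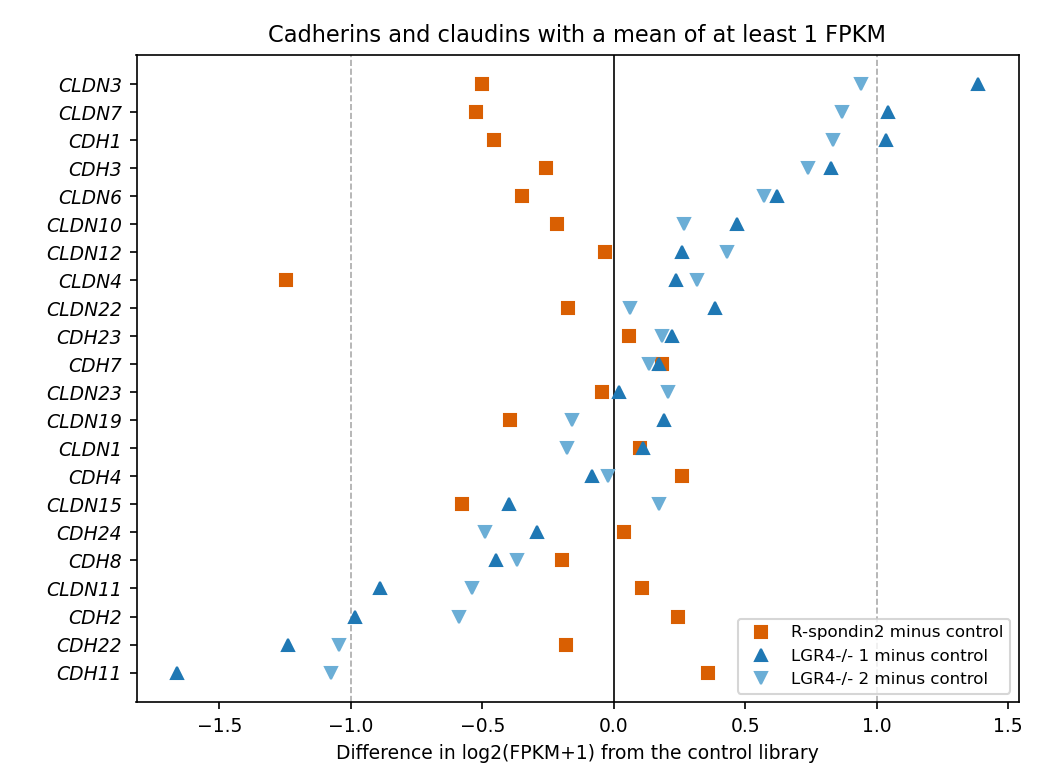
Difference in log2(FPKM+1) from the control library for the 22 members past the filter, ordered by the mean of both LGR4-/- libraries, with dashed lines at 2-fold. All 3 differences of a gene share 1 control library. CDH11 and CDH22 lie beyond the left dashed line in both LGR4-/- libraries, and CLDN4 is the gene whose R-spondin2 point lies beyond it.

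The 20 members with a mean under 1 FPKM were CDH20, CDH13, CLDN20, CLDN16, CDH18, CDH12, CDH6, CDH10, CLDN9, CLDN18, CDH26, CDH17, CDH15, CLDN5, CDH9, CLDN2, CDH5, CDH19, CLDN34 and CLDN14. Of these, 17 were under 1 FPKM in every library, and CLDN14 and CLDN34 were listed at 0 in all 4. Just outside the filter, CDH20 was at 1.19 FPKM in control, 1.55 with R-spondin2, and 0.54 and 0.58 in the LGR4-/- libraries, an order like that of CDH11. CDH13, a cadherin held by a lipid anchor and without the catenin-binding tail, was at 1.02, 0.98, 0.48 and 0.62 FPKM. CDH5, the cadherin of endothelium, was at 0.05, 0.05, 0.05 and 0 FPKM, and CLDN5, the endothelial claudin, between 0.13 and 0.33 FPKM. CLDN9, the neighbor of CLDN6 on chromosome 16, was between 0.16 and 0.69 FPKM.

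Genes for the proteins that hold cadherins at the adherens junction stood on both sides of control. Of 17 symbols listed as adherens junction partners, 12 were in the files and 11 past the filter, and 6 were above (background 34.4%) and 5 below (background 27.6%) both wild type libraries in the LGR4-/- libraries, with medians of 0.02 and 0.02 on the log2(FPKM+1) scale. β-catenin (CTNNB1), which binds cadherin tails and also carries the WNT signal, was at 163 FPKM in control, 174 with R-spondin2, and 144 and 156 in the LGR4-/- libraries. α-Catenin (CTNNA1), which links it to actin, was at 106, 106, 113 and 112 FPKM, and nectin 2 (NECTIN2) between 97.7 and 111 FPKM. Of the lower partners, CTNNA2 was at 2.50, 3.87, 1.66 and 1.76 FPKM and CTNND2 at 0.93, 0.68, 1.77 and 1.47 FPKM. CTNND2, which is among the 6 counted as above, passed the filter through the LGR4-/- libraries alone. A higher LGR4-/- level was thus built into its selection. In CTNNB1, CTNNA1 and NECTIN2 the LGR4-/- difference stayed under the SD over all genes of the mean LGR4-/- difference, 0.349.

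Most tight junction partners were above control in the LGR4-/- libraries, as most claudins were. Of 20 past the filter, 13 were above both wild type libraries in both LGR4-/- libraries (background 34.4%) and 4 below (background 27.6%), with medians of 0.32 and 0.30, and 13 of 20 were lower with R-spondin2 (background 51.9%). TJP3 (ZO-3), a scaffold that binds claudin tails, was at 1.99 FPKM in control, 0.66 with R-spondin2, 8.56 in LGR4-/- library 1 and 4.18 in library 2. It was the 1 gene of the list with a 2-fold difference on the FPKM+1 scale, in LGR4-/- library 1, and by its FPKM alone it was over 2-fold from control in the other libraries too. The most abundant partners, F11R (JAM-A, an adhesion molecule) and the cell polarity genes PRKCI and PARD3, were between 20.3 and 55.7 FPKM with limma adjusted p between 0.186 and 0.502. Of 14 desmosome genes, 8 were past the filter. Among them DSG2 was higher (50.3 FPKM in control, 56.0 and 58.8 in LGR4-/-) and desmoplakin (DSP) lower (38.6 in control, 26.8 and 32.0), and the medians were 0.02 and 0.17. The third of the most abundant, PKP4, was between 24.7 and 29.2 FPKM.

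Of 16 epithelial genes past the filter, 12 were above both wild type libraries in both LGR4-/- libraries (background 34.4%) and 2 below (background 27.6%), with medians of 0.50 and 0.44, and 14 were lower with R-spondin2 (background 51.9%). The keratins, the most abundant of the list, did not have this order. KRT8 was at 517 FPKM in control, 532 with R-spondin2, and 349 and 391 in LGR4-/-, and KRT19 was likewise lower in LGR4-/-, at 184 against 131 and 122 FPKM. KRT18 was at 347, 332, 279 and 332 FPKM, overlapping between genotypes. Of the 12 genes counted as above, CRB3 is also among the tight junction partners and is counted in both lists. Another of the 12, GRHL1, was at 0.80, 0.57, 1.54 and 1.25 FPKM. It passed the filter through the LGR4-/- libraries alone, so a higher LGR4-/- level was built into its selection. Of 10 EMT factors and mesenchymal genes, 9 were below both wild type libraries in both LGR4-/- libraries (background 27.6%) and 1 above (background 34.4%), with medians of -0.87 and -0.58, and 9 were higher with R-spondin2 (background 47.8%). SNAI2, a repressor of CDH1, was at 9.57 FPKM in control, 9.78 with R-spondin2, and 1.48 and 3.27 in LGR4-/-, and its relative SNAI1 at 37.8, 45.7, 16.4 and 24.1 FPKM. Vimentin (VIM) was at 524, 670, 144 and 216 FPKM, ZEB2 at 3.74, 4.95, 1.34 and 1.65 FPKM, and MMP2 at 66.6, 78.9, 32.8 and 45.1 FPKM. Fibronectin (FN1) was at 70.6 FPKM in control and 42.8 and 49.1 in LGR4-/-. On the FPKM+1 scale SNAI2 and VIM were the 2 genes of the list at least 2-fold lower in both LGR4-/- libraries, although the FPKM of ZEB2 given above, and those of ZEB1 (1.67 in control, 0.61 and 0.76 in LGR4-/-), were also lower by more than that fold. ZEB1, which is among the 9 counted as below, had a mean of 1.27 FPKM. It passed the filter through the wild type libraries alone, so a lower LGR4-/- level was built into its selection. In none of these junction, epithelial and mesenchymal lists did a gene pass the limma test at an adjusted p of 0.05.

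**Figure D4:**
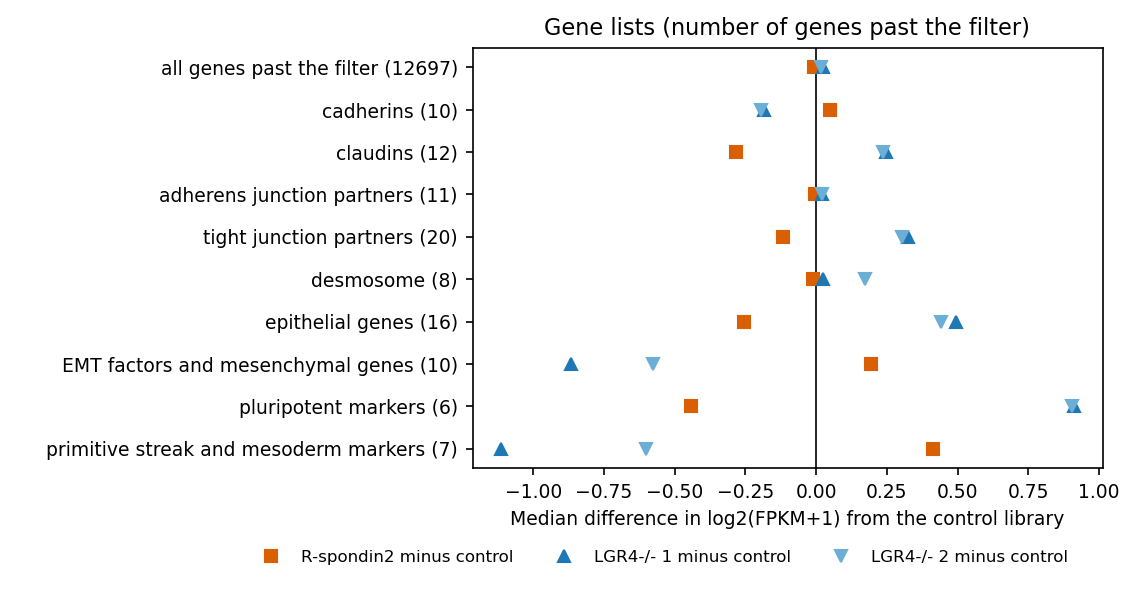
Median difference in log2(FPKM+1) from control of each gene list, with the number of genes past the filter in brackets, 1 point per library compared. The claudins, tight junction partners, epithelial genes and pluripotent markers have LGR4-/- medians from 0.23 to 0.91, the EMT and mesenchymal genes and the primitive streak and mesoderm markers from -1.11 to -0.58, and the medians of all genes and of the adherens junction partners lie near 0.

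Markers of cell state differed between the same libraries. All 6 pluripotent markers were above both wild type libraries in both LGR4-/- libraries (background 34.4%), with summed levels of 1144 FPKM in control, 877 with R-spondin2, and 1914 and 1751 in LGR4-/-. SOX2, a core pluripotency factor, was at 19.9, 5.58, 66.0 and 50.7 FPKM and PRDM14 at 7.59, 3.59, 26.8 and 20.5 FPKM. All 7 primitive streak and mesoderm markers were below both wild type libraries (background 27.6%), with summed levels of 1070, 1398, 378 and 589 FPKM, and APLNR, HAND1 and MESP1 were at least 2-fold lower in both LGR4-/- libraries. T and KDR differed little from control in LGR4-/- library 2, at 66.5 against 70.3 FPKM and at 32.9 against 34.4 FPKM. The part of these differences in the levels of cadherins and claudins was not tested.

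Markers of other cell types were also examined. Endothelial and blood markers, 5 of 8 past the filter, summed to between 14.2 and 16.1 FPKM, with 1 above (background 34.4%), 2 below (background 27.6%) and 2 overlapping the wild type libraries, and the defining markers PECAM1 and CD34 were under 1 FPKM on average. RUNX1 was 2-fold lower in both LGR4-/- libraries, at 0.61 and 1.29 FPKM against 3.96 in control. This short list holds no erythroid gene. Of such genes, named after their values had been seen, the glycophorin GYPB differed from control by -2.69 and -1.83 on the log2(FPKM+1) scale in LGR4-/- libraries 1 and 2, and the globin HBG2 by 0.48 and 0.56. Fibroblast or stromal markers, 5 of 7 past the filter, summed to between 214 and 292 FPKM, highest with R-spondin2. In both LGR4-/- libraries 1 was above both wild type libraries (background 34.4%) and 2 were below (background 27.6%). THY1 was above, at 44.0, 36.1, 54.3 and 64.5 FPKM, and COL1A1 overlapped, at 64.0, 83.6, 74.8 and 74.6 FPKM. COL1A2 was below, at 115, 153, 79.4 and 97.4 FPKM, and DCN and POSTN were under 1 FPKM on average. LUM was 2-fold lower in both LGR4-/- libraries, at 0.16 and 1.45 FPKM against 5.49 in control. Its LGR4-/- levels averaged under 1 FPKM, so LUM passed the filter through the wild type libraries. A lower LGR4-/- level was thus built into its selection. The part of these markers in the results was not tested.

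Some of these levels are uncertain because reads can be shared with other genes. Every run of 50 bases of the CLDN22 transcript is antisense to WWC2, and 13% of them occur in CLDN24 as well. For CLDN10, 57.9% are antisense to DZIP1, and for CDH3 13.4% are antisense to another gene, and the kit in the labels is not stated to keep strand. On the sense strand 25.5% of the runs of CLDN11, 11.7% of those of CLDN7 and 10.5% of those of CLDN6 also occur in another annotated transcript. CLDN3 and CLDN4 share 1.80% and 1.23% of their runs with each other.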

How the data were processed

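The members and gene lists were chosen with earlier results of these data known. The authors sequenced the libraries on an Illumina GAIIx and deposited FPKM values to 2 decimals per gene; per the labels the tools were BWA, Bowtie and RSEM and the build was hg19, with no versions or filters given in the sources used here. Since no counts were used, no count model was applied. Each library is 1 sample: 1 control, 1 R-spondin2 and 2 LGR4-/-.

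FPKM were compared as log2(FPKM+1), which understates the change of low genes, over genes averaging 1 FPKM or more. R-spondin2 and control were compared by fold (2-fold, on FPKM+1). LGR4-/- was compared with control by limma 3.58.1 in R 4.3.3 (3 groups, trended variance, prior degrees of freedom 4.05, Benjamini-Hochberg over 12697 genes) and by fold in both libraries. Every member past the filter is named, with values for those of at least 5 FPKM or 2-fold apart in a comparison; of other lists, genes 2-fold apart and up to 3 of the highest. Values of CDH4, CDH7, CDH8, CDH23, CDH5, CLDN5, CLDN9, CLDN15, CTNNA2, CTNND2, GRHL1, ZEB1, T, KDR, GYPB and HBG2 were added to this rule after they had been seen.

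Depth was estimated from values under 0.6 FPKM of transcripts below 1500 bases, out of 8068 genes with 1 transcript of known GENCODE release 29 length, by choosing the read total that made them nearest to whole reads. Between 76.3% and 77.7% of these values were then within 0.2 of an integer, against 43.5% to 46.5% with lengths shuffled. Implied reads used the shortest transcript, and Clopper-Pearson 95% intervals cover counting error only. On simulated libraries with 12697 genes limma called 97% of genes changed 2-fold between LGR4-/- and control. The simulation gave all genes and libraries, the control included, 1 common normal spread, which the real libraries need not have. This share therefore does not tell how many real changes limma could call here. Alternatives were a pseudocount of 0.1, no filter, a filter of 5 FPKM, median-ratio rescaling, 1.5-fold, limma without the trend or without R-spondin2, and each LGR4-/- library left out. Python 3.11.15, numpy 2.4.6, pandas 2.3.3 and scipy 1.17.1 were used.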

Additional observations from a re-analysis of the deposited data

How the results depend on the processing

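The sign of both differences held, under the alternatives tried, for the 13 members that were at 5 FPKM or more on average or 2-fold apart in a comparison. For these members a change of pseudocount, filter, fold threshold or limma setting could not alter a sign. The R-spondin2 sign was thus tested by rescaling alone, and the LGR4-/- sign by rescaling and by leaving out 1 LGR4-/- library. After rescaling (factors 0.989 to 1.02), 22 of 22 members kept the sign of the R-spondin2 difference and 21 of 22 that of the LGR4-/- difference. The counts depended on the settings. Over all genes, those 2-fold apart with R-spondin2 (28) became 139 with a pseudocount of 0.1, 14 with a filter of 5 FPKM and 254 at 1.5-fold. Those 2-fold apart in both LGR4-/- libraries (167) became 345 with that pseudocount, 724 at 1.5-fold, 7868 when both libraries only had to lie outside the wild type range, 9902 when only on 1 side of control (added after seeing the data), and 191 to 447 with 1 LGR4-/- library left out. Of members (2), these became 3 with that pseudocount, 1 with a filter of 5 FPKM, 7 at 1.5-fold, 18 outside the wild type range, 19 on 1 side of control, and 2 to 5 with 1 library left out. Between LGR4-/- libraries (32 genes), 141 passed with the pseudocount, 12 with the filter of 5 FPKM and 306 at 1.5-fold, where 1 member passed against 0.

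The limma count (0 genes, 2332 at an unadjusted p under 0.05) became 497 with 6 members at a filter of 5 FPKM, where fewer genes were tested, and 88 with 4 members after rescaling. It stayed at 0 with a pseudocount of 0.1, no filter, no trend or without R-spondin2. The smallest adjusted p over these settings ran from 0.0119 to 0.315. CDH22 moved from -1.14 to -2.25 with a pseudocount of 0.1. Leaving out CLDN4, added after seeing the data, left 13 members lower with R-spondin2. This count was fixed in advance, because CLDN4 was itself 1 of the 14 lower members, and is no test. No paired analysis was possible because only the LGR4-/- libraries carry replicate numbers. A single control library limits every comparison, and many members under about 5 FPKM rest on few reads. Reads also depend on transcript length. CDH8, at 1.29 to 2.12 FPKM, had about 112 to 184 implied reads, and CLDN10, at 4.33 to 7.56 FPKM, about 36 to 64.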
